A study of Arabidopsis thaliana with 6 samples.

Results

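The libraries compared were 1 of Arabidopsis thaliana wild type Col-0 and 1 of the mutant ein5-1, which carries a mutant allele of EIN5 (AT1G54490), the gene of the exoribonuclease XRN4. They are 2 of 6 RNA-seq libraries, and the comparison was read on the 33323 nuclear genes of a deposited table of 33602 genes. The other genotypes, again with 1 library each, were the single mutants ski2-3 and rdr6-11, a double mutant (ein5-1 ski2-3) and a triple mutant (rdr6-11 ein5-1 ski2-3). All came from the aerial parts of plants aged 18 days, with no treatment given, and these plants had spent 6 days in a greenhouse (22 °C, days of 16 h and nights of 8 h) and then 12 days on soil. The labels give no number of pooled plants, no lesion of the allele and no time of harvest. With 1 library a genotype there was no replicate check and no test, so each difference below is one between libraries.

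XRN4 is a cytoplasmic enzyme that degrades RNA from the 5′ end. It takes mRNA whose cap has been removed, and also the downstream pieces that remain after a microRNA has guided the cutting of its target. Its gene is named EIN5 because mutants respond weakly to ethylene, and in that pathway it is known for its effect on the mRNAs of the F-box genes EBF1 and EBF2. SKI2 is a helicase that feeds RNA to the exosome, which degrades from the 3′ end, and RDR6 copies RNA into double-stranded RNA for silencing.

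The Col-0 library held 20205663 reads and the ein5-1 library 22789530, of which 10942840 and 11628355 fell on nuclear genes. Of the nuclear reads, ribosomal RNA made up 19.2% in Col-0 and 1.07% in ein5-1, against 0.335% to 2.71% in the other 4 libraries, so Col-0 stood apart from all mutants. For that reason libraries were scaled by a trimmed mean over nuclear genes. A level here is in reads per 1e+06 scaled nuclear reads, and values over 6 libraries follow the order Col-0, ein5-1, ski2-3, double mutant, rdr6-11, triple mutant. Even counts made up 81.9% and 81.5% of the low counts in rdr6-11 and the triple mutant and 38.4% to 41.5% elsewhere, so intervals that use those libraries may be too narrow. Leaf markers were abundant, with 62886 reads of RBCS1A, the Rubisco small subunit, in Col-0 and 124912 in ein5-1. The 5 root markers had at most 11 reads each in Col-0 and at most 16 in ein5-1, and the meristem markers WUS and CLV3 had 0 reads in both.

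EIN5 transcripts were lower in the mutant but not lost. The gene had 599 reads in Col-0 and 370 in ein5-1, a log2 ratio of -1.05 with an exact 95% interval of -1.24 to -0.86. Its levels over the 6 libraries were 54.7, 26.4, 67.4, 36.1, 55.2 and 22.9. The 3 libraries labelled as carrying ein5-1 all lay below the 3 others, which fits their labels. Intervals on a ratio come from the 2 read counts and cover counting error only.

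A gene was taken as measured with at least 100 reads in the library with more, which 12987 reached. Of these, 189 (1.46%) had at least 2 times the Col-0 level in ein5-1, and 264 (2.03%) had at most 0.5 times that level, 3.49% together. The 2-fold call sorts genes by size and carries no p-value. The differences were narrow for most genes: 87.1% lay within 1.5-fold, and the ratios at the 5th and 95th percentile were -0.64 and 0.66 around a median of 0.05. The lower side reached further, with 54 genes at least 4-fold lower against 6 at least 4-fold higher, and 12 against 0 at 8-fold. The counting interval lay wholly past 2-fold for 169 of the lower genes and 59 of the higher ones. No measured gene had 0 reads in either library. Genes with under 100 reads in 1 library were measured through the other alone, 216 through Col-0 and 1405 through ein5-1. Such genes entered only through the library where they had more reads. Just past the threshold were HB-2 (1.0004) and Prx37 (-1.0016), and just short of it AT4G16447 (0.9993) and CAX3 (-0.9980).

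The balance of the 2 directions depended on scaling. Higher genes made up 41.7% of those called, but 74.3% (486 higher, 168 lower) with total nuclear reads as the scale, 65.5% (357 and 188) with organelle reads in the total, and 63.2% (335 and 195) with the ratios of the authors' deposited table. Those scales moved the median of all measured genes to 0.32, 0.23 and 0.21, so ratios are best read against a median of 0.05. A change of scale moves all ratios by about the same amount, here too little to turn a 2-fold difference around. That all 122 named genes past 2-fold kept their direction is therefore no check of them. With total nuclear reads EIN5 (-0.78), MYC2 (-0.99), JAZ9 (-0.74), HAI1 (-0.96), TAS2 (-0.86) and EXPA8 (-0.76), described below, fell short of 2-fold.

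**Figure D1:**
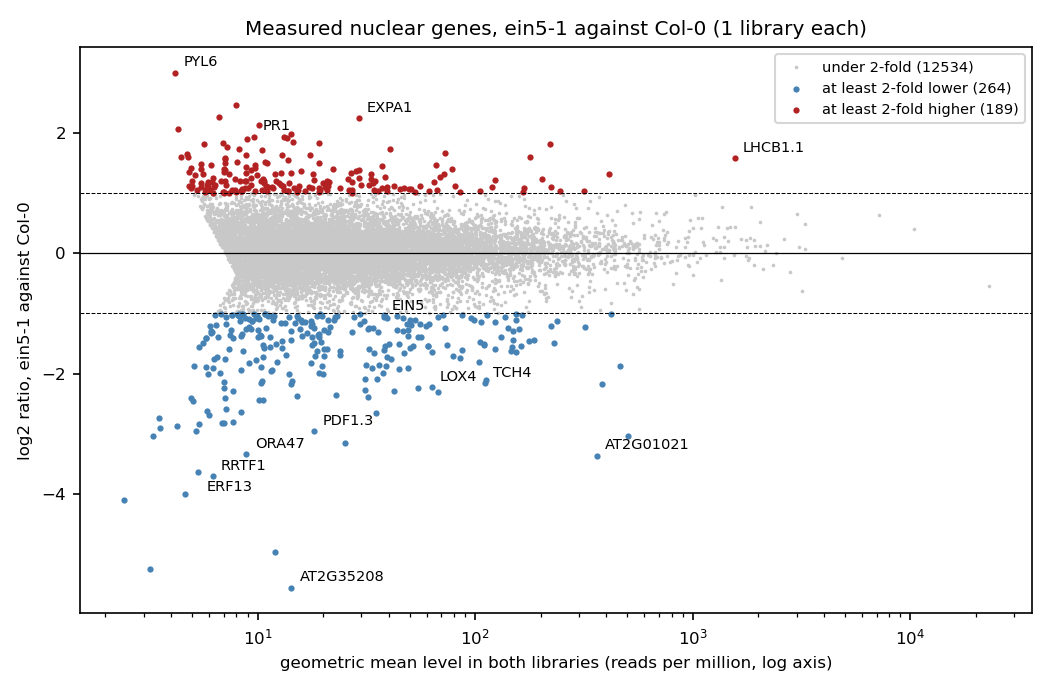
Each point is 1 of 12987 measured nuclear genes, with the geometric mean level of both libraries on a log x axis (reads per 1e+06) and the log2 ratio of ein5-1 against Col-0 on the y axis. Dashed lines mark 2-fold; the 264 blue points below reach -5.55, and the 189 red points above reach 2.99.

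Rapidly induced stress transcription factors were lower. AP2/ERF proteins bind DNA through a shared domain, and the members listed here are known to be switched on early after wounding, touch or oxidative stress. Of 15 listed, 11 were measured, and 8 of them were at least 2-fold lower and 0 higher, against 2.03% lower over all genes. The gene lists, here and below, were chosen with earlier results of these data known, so such shares describe the listed genes only. The median log2 ratio was -1.70 and the 11 ratios were negative, though 4 members (RRTF1, ERF13, ORA47 and ERF11) passed the read minimum through Col-0 alone. In bulk tissue, less RNA per cell and fewer cells of a type cannot be told apart. RRTF1 (AT4G34410), a redox-responsive factor, had 247 reads in Col-0 and 24 in ein5-1, a ratio of -3.69 (-4.39 to -3.11). ERF13 (AT2G44840) went from 208 reads to 21, at -3.63 (-4.39 to -3.02). ORA47 (AT1G74930), an activator of jasmonate synthesis genes, had 311 reads against 39, at -3.33 (-3.87 to -2.87).

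These 3 genes were thus 12.9-fold, 12.4-fold and 10.1-fold lower, among the 10 lowest of all measured genes. ERF11 (-2.80) and ERF4 (-1.90) encode repressors of the family, and ERF6 (-1.70), ERF5 (-1.69) and ERF105 (-1.63) encode factors of defence and stress responses. ERF1A (-0.9975, with 365 and 234 reads), ERF2 (-0.61) and ERF104 (-0.23) did not reach 2-fold. The cold regulators CBF1, CBF2 and CBF3 and the drought regulator DREB2A were under the read minimum, with 28, 21, 2 and 81 reads in Col-0 and 5, 1, 0 and 44 in ein5-1.

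Across the 6 libraries, Col-0 was the highest for each of the 3 lowest members. RRTF1 levels were 22.6, 1.71, 5.34, 6.64, 8.13 and 2.06, and those of ERF13 were 19.0, 1.50, 5.26, 3.39, 6.41 and 2.38. ORA47 stood at 28.4, 2.78, 5.58, 17.2, 19.4 and 8.88. The single mutants that keep EIN5 were therefore also below the same Col-0 library: RRTF1 had a ratio to Col-0 of -2.07 in ski2-3 and -1.47 in rdr6-11, and ERF13 of -1.84 and -1.56. Of the family, the 3 libraries with ein5-1 were all below the 3 without it for ERF13 and ERF2, 2 of 11, against 2.52% of all measured genes. Since this ordering includes ein5-1 below Col-0, its share was 12.1% among the 264 genes at least 2-fold lower. Of ERF13 and ERF2, ERF13 alone was at least 2-fold lower.

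Touch-induced and other early stress genes outside that family showed the same direction. Of 16 listed, 12 were measured, with a median of -1.45 and 12 negative ratios. At least 2-fold lower were 7 of them, against 2.03% over all genes, and 0 were higher. CML38, a calmodulin-like calcium sensor, was the lowest, with 159 reads against 28 (-2.84, -3.50 to -2.28). It passed the read minimum through Col-0 alone. TCH4, a xyloglucan endotransglucosylase induced by touch, had 2563 reads in Col-0 and 736 in ein5-1 (-2.16, -2.28 to -2.04). The zinc finger genes ZAT12 (-2.12), ZAT10 (-2.08), ZAT6 (-1.63) and SZF1 (-1.62) and the calcium-binding TCH2 (-1.28) made up the rest.

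TCH4 was lower in each pair of libraries that differ by ein5-1, although its height varied. TCH4 levels were 234, 52.5, 209, 59.9, 611 and 385, so the triple mutant still lay above Col-0 and the groups with and without the allele overlapped. Of the 12 measured genes of this list, 0 were below in all 3 libraries with ein5-1. MPK3 (-0.91), a stress-activated kinase, and CZF1 (-0.79) fell short of 2-fold, and TCH3 (-0.10) lay near 0. Among 7 measured WRKY factors, a plant-specific family of defence regulators, WRKY40 alone passed 2-fold, with 570 reads against 143 (-2.35, -2.63 to -2.09). WRKY70 stood at -0.79, WRKY18 at -0.73 and WRKY33 at -0.58, and the median of the 7 was -0.58.

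Genes of jasmonate synthesis were lower as well. Jasmonate is the wound hormone of plants, made from linolenic acid by lipoxygenases, allene oxide synthase, allene oxide cyclases and a reductase. Of 11 listed genes 10 were measured, all 10 ratios were negative and the median was -1.11. Of the 10, 5 were at least 2-fold lower, against 2.03% over all genes, and 0 higher. LOX4, a lipoxygenase, had 1491 reads in Col-0 and 410 in ein5-1, a ratio of -2.22 (-2.38 to -2.06). LOX3, its close relative, had 2020 and 913 reads (-1.50, -1.62 to -1.39). The cyclases AOC3 (-1.59) and AOC1 (-1.39) and the reductase OPR3 (-1.39, with 998 and 487 reads) were the others past 2-fold.

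Smaller differences were seen at AOS (-0.82), AOC2 (-0.80) and LOX2 (-0.63), the last with 43024 and 35744 reads. JAR1, which joins jasmonate to isoleucine, stood at -0.30, and AOC4 at -0.07. The 4 cyclase genes are similar in sequence, and how the authors' counting treated reads that match several of them is not given in the sources used here.

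For 4 of the 10 synthesis genes, LOX3, LOX4, AOC3 and OPR3, the 3 libraries with ein5-1 all lay below the 3 without it, against 2.52% of all measured genes. All 4 were among the 264 genes at least 2-fold lower, of which 12.1% had this ordering. LOX4 levels were 136, 29.2, 183, 37.6, 215 and 125. Those of OPR3 were 91.2, 34.7, 119, 19.5, 62.8 and 36.0. The nearest libraries of the 2 groups were close for LOX4, 125 in the triple mutant and 136 in Col-0. Because the triple mutant also differs from rdr6-11 by ski2-3, its ratio to rdr6-11 (-0.78 for LOX4 and -0.80 for OPR3) is not one of ein5-1 alone, and the median of that ratio over the 10 genes was 0.02. Against the same Col-0 library, the 10 genes had a median of 0.65 in ski2-3 and -0.41 in rdr6-11.

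Among 12 measured genes of jasmonate signalling, 4 were at least 2-fold lower (2.03% over all genes) and 0 higher, with a median of -0.67. JAZ proteins repress jasmonate responses, and their genes are themselves induced by the hormone. JAZ7 had 129 reads in Col-0 and 50 in ein5-1 (-1.71, -2.23 to -1.24), JAZ3 had 236 and 110 (-1.45), and JAZ9 had 2401 and 1525 (-1.01). Of these, JAZ7 passed the read minimum through Col-0 alone. MYC2, the main activator of the response, had 2685 reads against 1439 (-1.26, -1.35 to -1.16). Its relatives MYC3 (0.15) and MYC4 (0.09) and the receptor gene COI1 (0.23) were near the median of all genes.

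JAZ3, JAZ5, JAZ6, JAZ7 and JAZ9 were below in all 3 libraries with ein5-1, 5 of the 12 against 2.52% of all measured genes. The share was 12.1% among the 264 genes at least 2-fold lower, to which JAZ3, JAZ7 and JAZ9 belong. COI1 lay above in all 3 libraries with ein5-1, against 4.8% of all measured genes. Of 5 measured genes of jasmonate breakdown and response, ST2A, a sulfotransferase acting on a hydroxylated jasmonate, passed 2-fold (243 and 127 reads, -1.29). TAT3 (-0.99), VSP1 (-0.91), CYP94C1 (-0.88) and VSP2 (-0.45), common markers of the hormone, were lower by less.

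**Figure D2:**
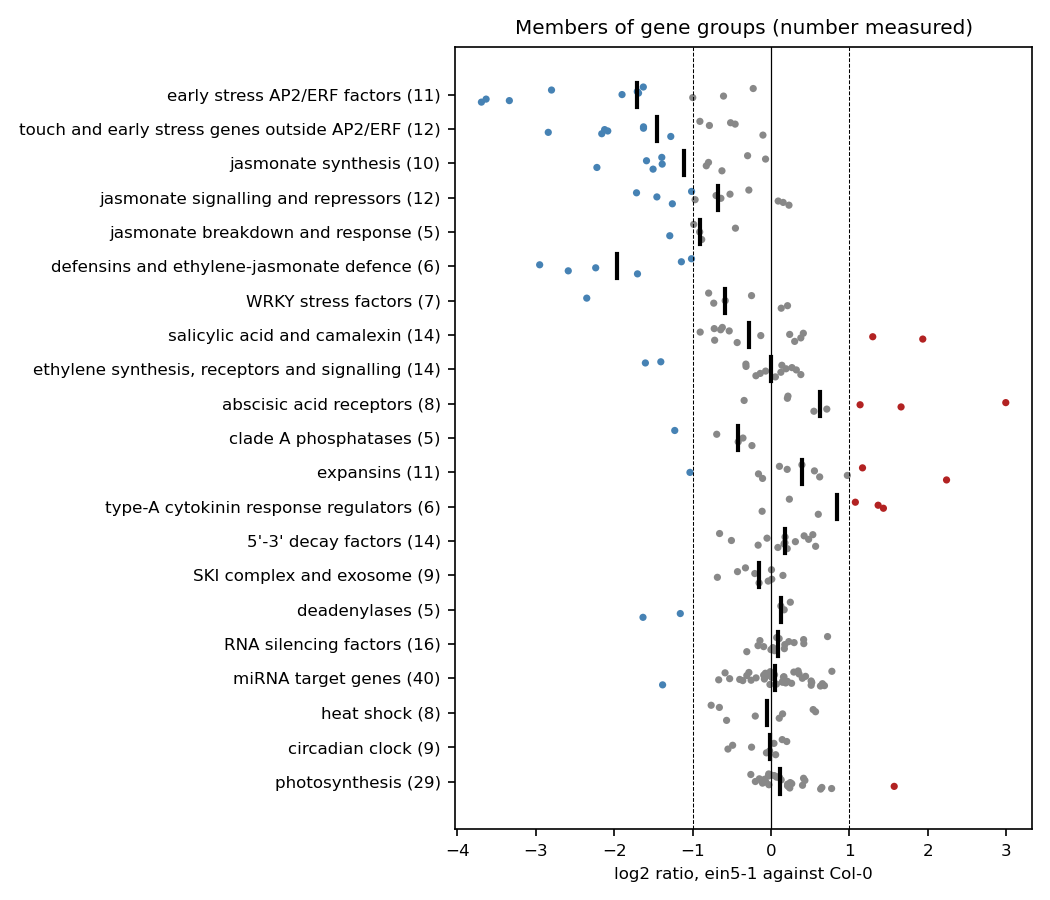
Each point is a measured gene of 1 of 21 groups, placed by its log2 ratio of ein5-1 against Col-0 on the x axis; black bars are group medians, numbers in parentheses are genes measured, and colours mark at least 2-fold lower (blue) or higher (red). The stress AP2/ERF factors (median -1.70), touch genes (-1.45), defensins (-1.97) and jasmonate synthesis genes (-1.11) lie to the left, and abscisic acid receptors (0.63) and type-A response regulators (0.84) to the right.

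Defensins and other defence genes that ethylene and jasmonate induce together were lower. Defensins are small antifungal peptides. Each of the 6 measured genes was at least 2-fold lower, against 2.03% over all genes, with a median of -1.97. PDF1.1 and PDF1.4 were under the read minimum. PDF1.3 had 557 reads in Col-0 and 92 in ein5-1 (-2.95, -3.29 to -2.64), PDF1.2b had 194 and 41 (-2.58), PDF1.2c 1294 and 352 (-2.23), and PDF1.2 1567 and 617 (-1.70). PDF1.3 and PDF1.2b passed the read minimum through Col-0 alone, the library where they are high. The PDF1.2 and PDF1.3 genes are near-identical copies, so the split of reads between them is uncertain. HEL, also called PR4, stood at -1.14 and the basic chitinase HCHIB at -1.01, close to the threshold. With total nuclear reads as the scale these last 2 stood at -0.87 and -0.74 and 4 of the 6 genes were lower.

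PDF1.3 had 557, 92, 5753, 19, 10 and 345 reads over the 6 libraries, so rdr6-11, which has EIN5, held the fewest and ski2-3 the most. The 3 libraries with ein5-1 were not all below the 3 others for any of the 6 genes. The ratio of rdr6-11 to the same Col-0 library was -6.19 for PDF1.3, and that of ski2-3 was 3.17.

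Ethylene genes had a median of -0.01 over 14 measured, with 2 lower and 0 higher, against 2.03% lower over all genes. ACS6, an enzyme of ethylene precursor synthesis, had 730 reads in Col-0 and 308 in ein5-1 (-1.60, -1.80 to -1.41). ORA59, a factor that joins ethylene and jasmonate signals at the defensin genes, had 104 and 50 reads (-1.40, -1.93 to -0.91). It passed the read minimum through Col-0 alone. EBF1, for which EIN5 is known, had 2270 reads in Col-0 and 3500 in ein5-1, a ratio of 0.27 (0.19 to 0.34). EBF2 had 1628 and 1673 reads, a ratio of -0.32 (-0.42 to -0.22). The F-box genes thus lay on either side of the overall median of 0.05, each by less than 1.5-fold. EIN3, the factor they target for destruction, stood at 0.32, EIN2 at -0.07 and the receptor gene ETR1 at 0.06.

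Other decay factors were near the median. None of 14 measured genes of decapping and 5′-to-3′ decay passed 2-fold, and their median was 0.18. XRN3 (0.09) and XRN2 (0.21), the nuclear relatives of XRN4, did not differ by much, with 1062 and 1446 reads and 854 and 1263 reads in Col-0 and ein5-1. DCP1 (0.57), DCP5 (0.31) and DCP2 (-0.16) encode decapping factors. SAL1, a phosphatase that removes a nucleotide inhibitor of these enzymes, was the lowest at -0.66 (905 and 736 reads). SKI2 itself stood at 0.05 (-0.18 to 0.28), with 279 and 370 reads, and the 9 measured genes of the SKI complex and exosome had a median of -0.15 and 0 calls. UPF1, a helicase of nonsense-mediated decay, stood at 0.18 (1452 and 2109 reads).

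Of 5 measured deadenylases, which shorten the poly(A) tail ahead of decapping, 2 were lower, against 2.03% over all genes. CAF1A had 1217 reads in Col-0 and 503 in ein5-1 (-1.63, -1.79 to -1.48), and CAF1B had 244 and 140 (-1.16, -1.47 to -0.85). With total nuclear reads as the scale CAF1B stood at -0.89, which leaves CAF1A alone past 2-fold, and in the authors' deposited table it stood at -0.99. Both are known as stress-inducible members of their family. The 3 other measured members lay between 0.13 and 0.25. CAF1A levels were 111, 35.9, 81.3, 139, 41.6 and 33.8, so the double mutant was the highest and rdr6-11 nearly as low as ein5-1.

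RNA silencing genes and microRNA targets, which bear on the second known substrate of the enzyme, lay near the median of all genes. None of 16 measured silencing genes passed 2-fold, with a median of 0.09, AGO1 at -0.31 and HESO1, a nucleotidyltransferase that adds uridines to RNA, highest at 0.72. RDR6 had 433 and 401 reads (-0.47, -0.67 to -0.27). Of 57 listed microRNA targets 40 were measured, 0 were higher and 1 lower, with a median of 0.06, close to 0.05 for all genes. The lower one was SPL13, a target of miR156, with 202 reads against 99 (-1.38, -1.75 to -1.03). At the upper end were GRF3 (0.78), SCL22 (0.68), TCP4 (0.66) and SCL6 (0.63). Counts per gene do not separate intact mRNA from a downstream cleavage product. The precursor of trans-acting small RNAs TAS2 stood at -1.13, with 135 and 79 reads, and TAS1C (-0.38) and TAS1A (-0.33) were lower by less. SPL13 and TAS2 passed the read minimum through Col-0 alone.

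Among the higher genes, abscisic acid receptors had the highest single ratio. PYR/PYL proteins bind the drought hormone and then block clade A phosphatases. PYL6 (AT2G40330) had 16 reads in Col-0 and 167 in ein5-1, a ratio of 2.99 with a wide interval of 2.28 to 3.87, the highest of all measured genes, and it passed the read minimum through ein5-1 alone. PYL4 had 446 and 1804 reads (1.66, 1.51 to 1.81), and PYL5 had 241 and 679 (1.14, 0.92 to 1.35). Of 8 measured receptors these 3 were at least 2-fold higher and 0 lower, against 1.46% higher over all genes. The median was 0.63, with PYL1 at 0.71, PYR1 at 0.55 and PYL7 at -0.34.

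For PYL6 and PYL4 Col-0 was the lowest of the 6 libraries. PYL6 levels were 1.46, 11.9, 7.97, 2.91, 5.55 and 9.54, those of PYL4 were 40.8, 129, 99.2, 49.9, 80.8 and 95.8, and those of PYL5 were 22.0, 48.4, 63.5, 21.1, 63.3 and 74.5. PYL5 was lowest in the double mutant, next to Col-0. The libraries with and without ein5-1 overlapped for all 3. Clade A phosphatase genes leaned the other way, with 5 negative ratios of 5 and a median of -0.42. HAI1, measured through Col-0 alone, was the only one past 2-fold (154 and 84 reads, -1.23), and PP2CA stood at -0.69. Of 10 genes of abscisic acid, cold and drought response RD22 alone passed, with 1892 and 4935 reads (1.03), while RD29A (-0.68) and P5CS1 (-0.95) were on the lower side.

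Among genes of salicylic acid and camalexin 2 of 14 measured were at least 2-fold higher, against 1.46% over all genes. Of the 14, 0 were lower, and 8 ratios were negative. PR1, a secreted defence protein, had 54 reads in Col-0 and 266 in ein5-1 (1.93, 1.52 to 2.39), and PR5 had 69 and 218 (1.296, 0.91 to 1.71), so both passed the read minimum through ein5-1 alone. The other 12 did not pass, among them PR2 (0.38), the receptor gene NPR1 (0.30) and the synthesis regulator CBP60G (-0.90), and the median of the 14 was -0.28. PR1 levels were 4.93, 19.0, 40.8, 13.8, 17.8 and 53.0, so Col-0 was the lowest of the 6 and ski2-3 lay above ein5-1.

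Type-A response regulators, which cytokinin induces and which dampen its signal, were higher for 3 of 6 measured genes and lower for 0. Over all measured genes 1.46% were higher. ARR6 had 59 and 205 reads (1.43, 1.01 to 1.88) and was measured through ein5-1 alone, ARR7 had 193 and 638 (1.37, 1.13 to 1.61), and ARR8 had 145 and 392 (1.07, 0.80 to 1.36). ARR4 stood at 0.60, ARR9 at 0.23 and ARR5 at -0.11, around a median of 0.84. ARR8 was above in all 3 libraries with ein5-1, at levels of 13.3, 28.0, 13.0, 21.4, 19.4 and 22.2, with rdr6-11 and the double mutant the closest of the 2 groups. ARR6 and ARR7 were not, since both were lowest in the double mutant. Of the 189 genes at least 2-fold higher, 25.4% were above in all 3 libraries with ein5-1.

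Genes of wall loosening and growth leaned upward with few calls. Expansins loosen the cell wall. EXPA1 (AT1G69530) had 147 reads in Col-0 and 890 in ein5-1, 4.71-fold more (2.24, 1.99 to 2.50), and EXPA11 had 102 and 294 (1.17). EXPA8, measured through Col-0 alone, was lower (133 and 83 reads, -1.03), EXPA5 stood at 0.97, and the median of 11 was 0.39. EXPA1 levels were 13.4, 63.5, 17.8, 19.1, 29.3 and 46.4, with the triple mutant and rdr6-11 next below ein5-1. Of 6 measured xyloglucan endotransglucosylases outside the touch list, 0 passed and the median was 0.51. BR6OX2, an oxidase of brassinosteroid synthesis, had 117 and 309 reads (1.04, 0.73 to 1.36) and was above in all 3 libraries with ein5-1.

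The remaining genes among the 10 highest had mixed roles. AT4G28180, annotated as an uncharacterized protein, had 37 and 262 reads (2.45, 1.97 to 3.00). HB23, a homeobox gene, had 33 and 204 (2.26, 1.73 to 2.85), and ATL8, a RING-type ubiquitin ligase gene, 23 and 124 (2.05, 1.42 to 2.78). MES18, a methyl esterase gene, had 78 and 397 (1.98), MIOX2, which oxidises myo-inositol, 74 and 362 (1.93), and AT5G41900, an alpha/beta-hydrolase gene, 77 and 372 (1.91). In Col-0 each of these 6 had under 100 reads, so they were measured through ein5-1, as were 1405 genes in all, against 216 through Col-0. ATL8 and MIOX2 were above in all 3 libraries with ein5-1, at levels of 2.102, 8.84, 4.14, 11.9, 6.48 and 12.9 and of 6.76, 25.8, 8.61, 31.6, 6.35 and 10.2.

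**Figure D3:**
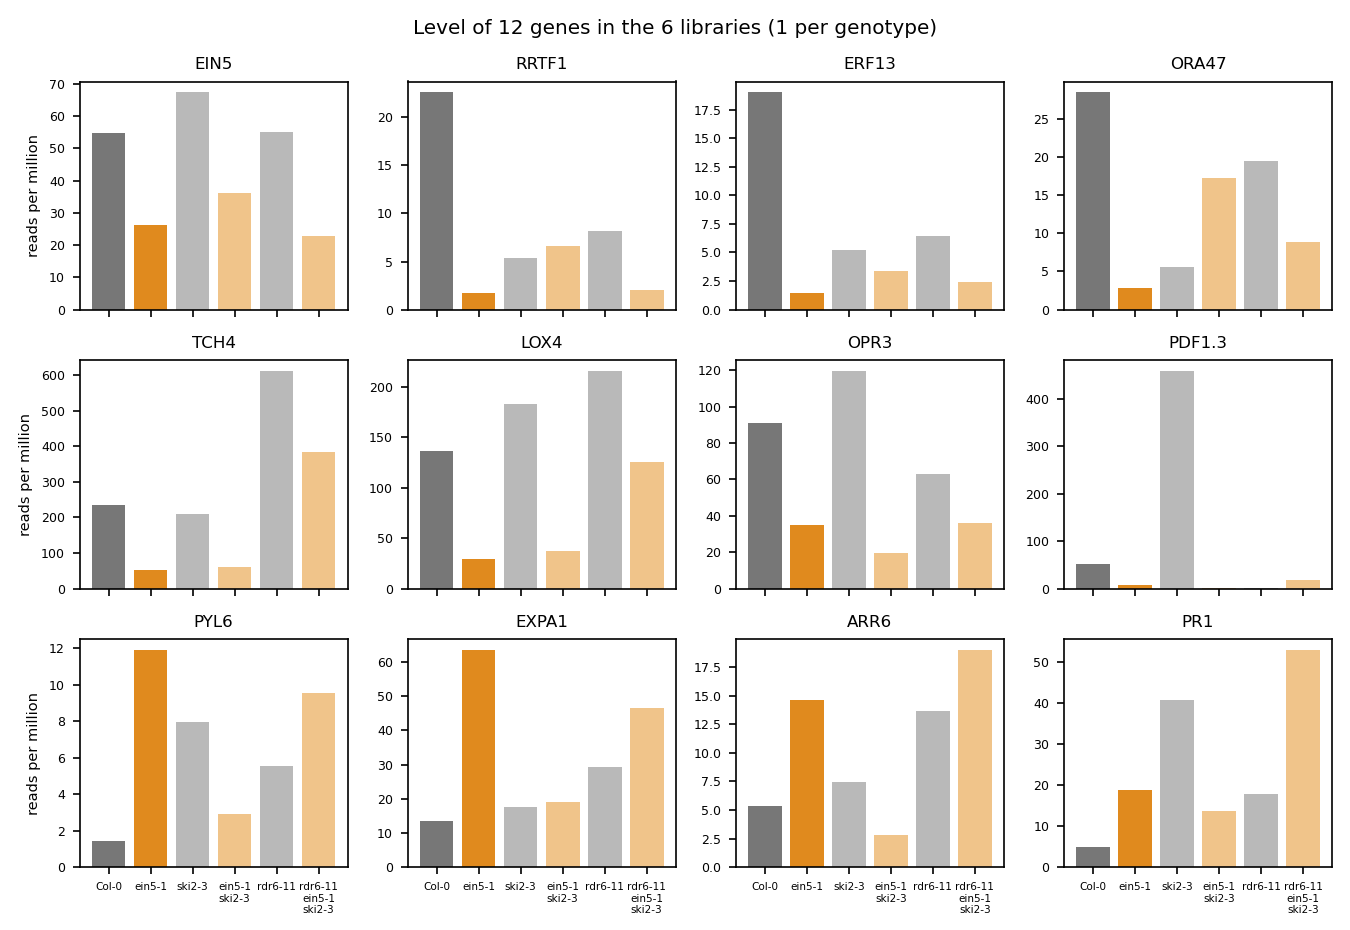
Bars give the level of 12 genes (reads per 1e+06, y axes starting at 0) in each of the 6 libraries on the x axis, with Col-0 dark grey, ein5-1 dark orange, other libraries without ein5-1 light grey and other libraries with it light orange. LOX4 and OPR3 are lower in every orange bar than in every grey one, RRTF1 and ERF13 are highest in Col-0, and PYL6, EXPA1 and PR1 are lowest in Col-0.

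Short non-coding RNAs held many of the lowest ratios. Of 6 measured small nucleolar RNAs, which guide modification and processing of ribosomal RNA, 5 were at least 2-fold lower and 1 higher, with a median of -2.45. AT4G39363 had 223 reads in Col-0 and 7 in ein5-1 (-5.24, -6.68 to -4.28), and SNOR111 had 113 and 8 (-4.09). Both passed the read minimum through Col-0 alone, so the count and the median of this small class depend on that filter. U3B had 8876 and 2538 reads (-2.16) and its near copy U3D had 9704 and 3401 (-1.87). SNOR105 went the other way, with 488 and 1494 reads (1.26).

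Of 9 spliceosomal small nuclear RNAs 4 were lower, all of them U2 genes: U2.6 (-1.298), U2.4 (-1.22), U2.5 (-1.12) and U2.7 (-1.104). They are near copies that can share reads. With total nuclear reads as the scale U2.6 alone stayed past 2-fold (-1.03), with U2.4 at -0.95, U2.5 at -0.85 and U2.7 at -0.83, and U2.5 (-0.95) and U2.7 (-0.94) also fell short in the authors' deposited table. U12, of the minor spliceosome, was among the 10 highest (53 and 297 reads, 2.12, 1.70 to 2.58) and was measured through ein5-1 alone. Among 23 genes of the annotated class ncRNA 7 were lower and 0 higher, with AT2G43375 lowest (824 and 118 reads, -3.16). The 37 genes of the class lncRNA had 1 higher, 1 lower and a median of 0.21. By contrast, the 12742 protein-coding genes had 1.44% higher and 1.88% lower.

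The order of the 6 libraries was not the same for all of these RNAs. AT2G43375 levels were 75.3, 8.41, 8.05, 7.94, 142 and 88.8, AT4G39363 levels 20.4, 0.499, 1.12, 0.738, 26.8 and 15.3, and SNOR111 levels 10.3, 0.570, 0.877, 0.434, 9.32 and 6.50. Col-0, rdr6-11 and the triple mutant were high and the other 3 low in each of these 3 RNAs. U3B and U3D were lower in both backgrounds, at -1.74 and -1.58 in the double mutant against ski2-3. The split seen in AT2G43375 was also seen for AT1G29418, an uncharacterized protein-coding gene (742 and 30 reads, -4.96), and for the pseudogenes AT1G21945 (205 and 16 reads, -3.99) and AT4G06477 (15758 and 2465, -3.03).

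AT2G35208, an identifier outside the gene table, had the lowest ratio of all, with 1077 reads in Col-0 and 29 in ein5-1 (-5.55, -6.16 to -5.04). AT2G01021, annotated as an uncharacterized protein, had 12718 and 1590 reads (-3.36). Its levels were 1160, 113, 34.2, 123, 278 and 269, beside ribosomal RNA shares of 19.2%, 1.07%, 0.335%, 2.71%, 1.58% and 1.38% in the same libraries. Col-0 was the highest and ski2-3 the lowest in both measures, and the part of ribosomal RNA depletion in this gene's ratio was not tested.

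Few or no genes passed 2-fold in the groups that follow. Photosynthesis genes had a median of 0.11 over 29 measured, with LHCB1.1, a chlorophyll-binding protein of the light-harvesting complex, alone past 2-fold (9911 and 37707 reads, 1.57). That gene has near-identical copies, and its level was 906 and 2689 reads per 1e+06 in Col-0 and ein5-1 against 8796 and 8568 in rdr6-11 and the triple mutant. No gene passed among 13 of nitrate assimilation (median 0.16), 13 of glucosinolate synthesis (-0.02), 9 of the circadian clock (-0.02), 8 of heat shock (-0.05), 9 of superoxide dismutases and catalases (0.02), 6 of senescence (-0.09), 9 of auxin response (-0.05), 7 of flavonoid synthesis (-0.41) or 2 of phosphate starvation (0.01). Clock genes cycle over the day, and against the same Col-0 their median was -2.11 in rdr6-11 and -0.02 in ski2-3. No measured cell type marker passed 2-fold in either direction. The summed level of 4 leaf markers was 8442 in Col-0 and 12093 in ein5-1. That of 3 vascular markers was 210 and 239, and that of 3 dividing cell markers 102 and 91.4. Only 0 of 5 root markers, 1 of 10 flower and flowering markers and 1 of 4 shoot meristem markers were measured, so those types could hardly be read.

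Genes with few exons were called more often than genes with many. Of 1548 protein-coding genes with 1 exon in the longest annotated transcript, 4.84% passed 2-fold upward and 5.17% downward. The shares together were 10.0% at 1 exon, 5.93% at 2, 3.13% at 3 to 5, 1.29% at 6 to 10 and 0.598% at 11 or more, in steady order. The step at 1 exon was present at each read depth: with genes split into 3 equal bins of read number, 14.2% of intronless genes were called against 3.70% of the rest in the lowest bin, 6.22% against 1.71% in the middle one and 8.29% against 1.80% in the highest. RRTF1, ERF13 and ORA47 on the lower side and PYL6 on the higher side each have 1 exon. Transcript length ran alongside, with 8.89% called in the shortest of 5 equal length bins and 1.04% in the longest, and the parts of exon number and length were not separated. The double mutant against ski2-3 had the same order over exon number. There 7.21% were higher and 12.5% lower at 1 exon, and 1.56% and 3.96% at 11 or more.

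**Figure D4:**
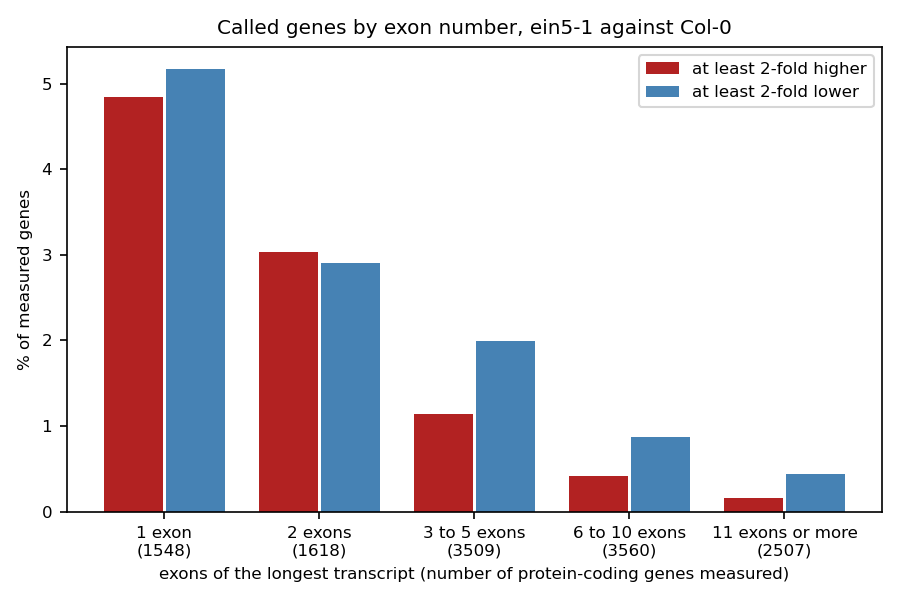
Bars show the percent of measured protein-coding genes (y axis) at least 2-fold higher (red) or lower (blue) in ein5-1, by the number of exons in the longest transcript (x axis, with the number of genes in parentheses). Both shares fall from about 5 percent at 1 exon (4.84% and 5.17%) to under 0.5 percent at 11 or more (0.160% and 0.439%).

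The same allele could be read a second time in the ski2-3 background, as the double mutant against ski2-3, a comparison that shares no library with ein5-1 against Col-0. It asks what ein5-1 did where SKI2 was already impaired. Differences of 2-fold upward numbered 948 (6.28%) and downward 1073 (7.11%) of 15093 measured genes. The gene set differs, and nuclear reads numbered 16593256 in the double mutant and 10968619 in ski2-3. Genes high in the double mutant could therefore pass the read minimum more readily. Of the 264 genes lower in ein5-1, 239 were measured there, 84 were again lower and 16 higher, with a median of -0.61. Over the 12887 genes measured in both comparisons 1004 (7.79%) were lower and 433 (3.36%) higher, so 433 of the 948 upward differences lay in that shared set. Of the 189 higher genes 185 were measured, 40 were again higher and 19 lower, with a median of 0.47. The 84 shared lower genes are 31.8% of the ein5-1 list and 7.83% of the other, and the 40 shared higher genes are 21.2% and 4.22%.

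The groups parted in this second comparison. Jasmonate synthesis was again lower, with 8 of 10 genes past 2-fold and a median of -1.78: LOX4 stood at -2.28 (-2.40 to -2.17), OPR3 at -2.61 (-2.77 to -2.46) and LOX3 at -2.79. TCH4 was lower too (-1.80, -1.90 to -1.71). Defensin ratios were larger still, with a median of -6.83 and PDF1.3 at -9.07 (5753 reads in ski2-3 and 19 in the double mutant).

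The AP2/ERF factors did not follow. Of 10 measured, 0 were lower and 3 higher, with a median of 0.17. RRTF1 stood at 0.31 (-0.11 to 0.75), ERF4 at 0.03, and ORA47 at 1.62 (1.25 to 2.01). RRTF1 and ORA47 passed the read minimum there through the double mutant alone, the deeper library. ERF13 was under the minimum in both libraries and was not measured. In ski2-3 the 11 factors had a median ratio to Col-0 of -0.69. For the touch genes the median was 0.14, and 2 of 12 were lower. Abscisic acid receptors had a median of -0.68 and 3 of 8 lower, type-A response regulators 3 of 4 lower and a median of -1.44, and clade A phosphatases 4 of 5 higher with a median of 1.52, each opposite to its direction in ein5-1 against Col-0. EXPA1 was at 0.10 (-0.14 to 0.34), while ATL8 (1.51), MIOX2 (1.87), HB23 (0.60) and BR6OX2 (1.37) were on the higher side in both. The differences between the backgrounds have no replicates and were not tested.

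**Figure D5:**
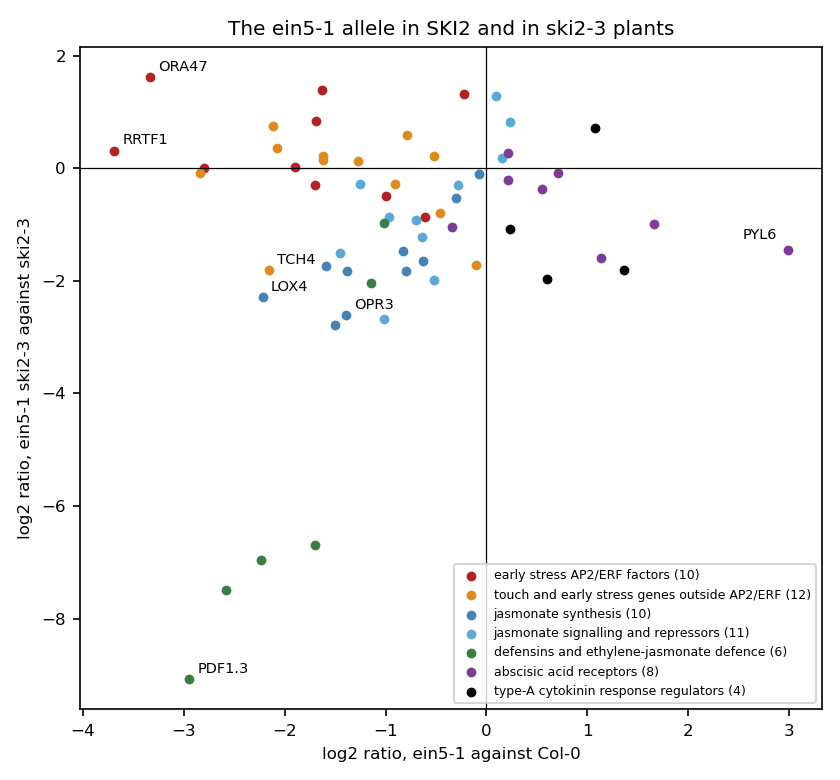
Each point is a gene of 7 groups measured in both comparisons, with the log2 ratio of ein5-1 against Col-0 on the x axis and of the double mutant against ski2-3 on the y axis, coloured by group with the number of genes in parentheses. Jasmonate synthesis genes and defensins lie in the lower left, the AP2/ERF factors lie around 0 on the y axis (median 0.17), and abscisic acid receptors lie mostly in the lower right.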

How the data were processed

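RNA from shoots of 6 genotypes was depleted of ribosomal RNA, sheared, copied with random primers and amplified, per the labels' protocols. The authors deposited read counts per gene, RPKM values and log2 ratios of RPKM, per the file headers. BWA and the TAIR9 build are named in the submitters' processing notes. Gene assignment, the use of strand and versions are not given in the sources used here, so antisense and overlapping genes cannot be told apart. Empty cells were read as a count of 0: all 426 of 426 deposited ratios with a missing Col-0 RPKM implied 0.001 (within 1e-05), and 25970 of 25970 with both values matched the log2 ratio of RPKM within 0.001. The 25 other value columns, on pairs of libraries, were not used. Names, gene classes, products and exons came from TAIR10.1, which held 32835 of the identifiers (488 were absent), and no coordinates were taken from it.

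Nuclear gene counts were put on 1 scale with a trimmed mean of M-values (trims 0.3 and 0.05, Col-0 as reference) in numpy 2.4.6, which put ein5-1 at 1.28 relative to Col-0. A pseudocount of 0.5, scaled to the library, was added. The 4 ribosomal and 623 transfer RNA genes were then left out. Genes with at least 100 reads in the library with more were measured and called at 2-fold. Exact 95% Clopper-Pearson intervals from the counts, in scipy 1.17.1, cover counting error only, since amplified reads are not independent molecules. The code was tested on simulated data. Named genes are EIN5, the 10 highest and 10 lowest, list members past 2-fold with up to 4 other examples a list, and members of small gene classes past 2-fold; further members given by value were chosen after their values were seen. The members and gene lists were chosen with earlier results of these data known. The description of the 3 libraries with ein5-1 against the 3 without was added after values were seen. Other scales, pseudocounts and read minimums were tried.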

Additional observations from a re-analysis of the deposited data

Results flagged for a closer look

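For 12 named genes the ein5-1 allele went with a 2-fold difference in one direction against Col-0 and in the opposite direction in the ski2-3 background. Each value is the log2 ratio of ein5-1 to Col-0 minus that of the double mutant to ski2-3, from 1 library a genotype, and the difference was not tested. On the positive side PYL6 stood at 4.44, MES18 at 3.98, PR1 at 3.501, U12 at 3.21, ARR7 at 3.17, the small nucleolar RNA SNOR105 at 2.91, the laccase gene LAC3 at 2.90 and PYL5 at 2.73. PYL6 passed the read minimum only through the library where it is high, ein5-1 in the first comparison and ski2-3, at the minimum, in the second. MES18, PR1 and U12 passed it through ein5-1 alone against Col-0. On the negative side AT2G01021 stood at -5.21, ORA47 at -4.95, ERF105 at -3.01 and HAI1 at -2.74.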

How the results depend on the processing

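The number of genes higher in ein5-1 (189) and lower (264) depended on the scale and on the read minimum. With total nuclear counts they were 486 and 168, and higher genes numbered 357 with organelle reads included and 335 in the authors' deposited table. At a minimum of 30 reads 351 were higher and 475 lower, at 300 reads 85 and 140, and with at least 1 read in either library 2524 and 3109. EIN5 stood at -0.78 with total nuclear counts. Lower jasmonate signalling genes numbered 2 with total nuclear counts and 2 at 300 reads, and lower AP2/ERF factors 4 at 300 reads, where fewer genes are measured. Genes higher in both backgrounds (40) numbered 63 with total nuclear counts, 66 with those less ribosomal RNA, 77 with organelle reads and 77 in the authors' table. For the scales the cause was not tested, and other read minimums change how many genes are measured. Of 122 named genes, 42 moved by more than their counting interval with total nuclear counts, 29 with organelle reads and 26 in the authors' table. Under the other scales and pseudocount 0 did so. That 0 changed direction is no check, since shifts of this size could not reverse genes past 2-fold.

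No paired analysis was possible because each genotype has 1 library and no replicate number, and leaving out a replicate was not possible for the same reason. At 100 reads the counting interval of a ratio is wide, as for PYL6 (2.28 to 3.87). Ratios near the median can change sign with the scale.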

Other observations

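Some annotated protein families outside the lists, chosen after their values were seen, held several genes past 2-fold in ein5-1, where 1.46% of all measured genes were higher and 3.49% were past 2-fold in either direction. Among those with at least 10 measured genes, HXXXD-type acyl-transferases had 4 of 18 higher and 0 lower, and the SAUR-like family, named for small auxin-induced RNAs, had 3 of 13 higher and 0 lower with a median log2 ratio of 0.66. Genes annotated as hydroxyproline-rich glycoproteins had 3 of 30 higher, aspartyl proteases 3 of 32, and RING/U-box proteins 6 of 113 with 1 lower. On the lower side the share over all measured genes was 2.03%. Calcium-binding EF-hand proteins had 3 of 18 lower and disease resistance proteins of the TIR-NBS-LRR class 3 of 35, with 0 higher in each. Integrase-type DNA-binding proteins, which include the listed ORA47 and ERF105, had 3 of 19 lower and 1 higher.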
